A study of Mus musculus with 30 samples.

Results

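*Dnd1*, *Lin28a* and *Mex3a* encode RNA-binding proteins that act on transcripts after they are made, and their mRNA levels were followed through 30 single primordial germ cells (PGCs). They are 3 of 18194 genes on the array, and 5 of its 45101 probe sets name them: 1 for *Dnd1*, 2 for *Lin28a* and 2 for *Mex3a*. The genes were chosen by their measured levels in these same cells, so every level, difference and correlation of theirs is given as a description and carries no test. The cells came from C57BL/6 embryos at E7.25-E7.5 whose parents were both *Prdm14*+/-, and the labels give 4 cells as *Prdm14* KO (-/-), 13 as *Prdm14*+/- and 13 as WT (+/+). *Prdm14* encodes a transcriptional regulator of the germline. Single cells were picked at the base of the allantois, their cDNA was amplified, and cells positive for *Prdm1* by PCR were taken as PGCs and hybridised to 1 Affymetrix array each. The labels do not tie cells to embryos, so a genotype is 1 sample here, an SD is the spread over its cells, and no p-value is given.

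DND1 is a vertebrate germ cell protein without which PGCs are lost in mouse and zebrafish, and it works with NANOS proteins and the CCR4-NOT deadenylase on target mRNAs. LIN28A binds precursors of the let-7 microRNAs and keeps them from maturing, which relieves let-7 targets, and its loss in the mouse lowers PGC number. MEX3A belongs to a family of KH-domain RNA-binding proteins that take part in mRNA turnover and are known from the *C. elegans* embryo, where MEX-3 controls cell fate.

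LIN28A is tied to sequences that could not be read from these arrays, since mature microRNAs were not measured. They are shown as background to the let-7 target genes described further on, which come from a fixed list and were not searched for the seed. The precursor motif GGAG is what the zinc knuckles of LIN28A recognise. The mature sequences come from RefSeq (GRCm38.p6), 5′ to 3′, with the seed (bases 2 to 8) in capitals.
mmu-let-7a-5p: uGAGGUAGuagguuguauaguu
mmu-let-7d-5p: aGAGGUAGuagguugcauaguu
mmu-let-7g-5p: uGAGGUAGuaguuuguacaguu
mmu-let-7j: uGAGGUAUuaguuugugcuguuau
Of 10 mature let-7 forms in the table, 9 shared the seed GAGGUAG and let-7j carried GAGGUAU. In the following precursors, from chr9:106178840-106178927 on the plus strand (Mirlet7g) and chr15:85707319-85707403 on the plus strand (Mirlet7b), capitals mark GGAG.
Mirlet7g: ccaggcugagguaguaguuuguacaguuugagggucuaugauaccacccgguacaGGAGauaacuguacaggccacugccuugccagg
Mirlet7b: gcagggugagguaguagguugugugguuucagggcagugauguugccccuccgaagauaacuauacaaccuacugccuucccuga
GGAG, searched on the RNA strand, stood in 9 of 11 let-7 precursors (81.8%) and in 447 of 1005 mouse precursors of the table (44.5%). Mirlet7b is 1 of the 2 let-7 precursors without it, and no match says only that these letters are not in this window.

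The deposited values are log2 MBEI, a model-based expression index fitted by dChip to perfect-match minus mismatch signals of a probe set. On average 63.7% of an array's probe sets were listed at 0 (range 58.9% to 69.6%), and any value under 6 (64 MBEI) was raised to 6, the floor, where values have no order. Each level below is a floored log2 MBEI. MBEI levels of different probe sets are not on 1 scale, so levels are compared between cells and never between genes. The array codes show 3 runs: run 3 held the 4 cells labelled *Prdm14* KO and 6 labelled *Prdm14*+/-, run 2 held 7 labelled *Prdm14*+/- and 3 labelled WT, and run 1 held 10 labelled WT. Cells labelled KO and WT therefore shared no run, and their difference and that of the runs cannot be told apart except through the *Prdm14*+/- cells. The 75th percentile of an array averaged 7.20 over the cells labelled *Prdm14* KO, 6.69 over those labelled *Prdm14*+/- and 6.47 over those labelled WT. Taken over the values above 0 alone it ran the other way, with 10.16, 10.20 and 10.22. The *Prdm14* transcript ran against the labels, with means of 11.40 in cells labelled *Prdm14* KO, 9.70 in those labelled *Prdm14*+/- and 7.40 in those labelled WT. *Dppa3*, a germ cell gene, ran in the same order, with means of 12.55, 10.23 and 9.05 in KO, *Prdm14*+/- and WT cells. For *Prdm14*, the sources used here do not say whether the deletion covers its probe set. All directions below therefore hold for cells as labelled. *Prdm1*, by which cells were picked, exceeded the floor in every cell. The germ cell genes *Dppa3* and *Tfap2c* were both at the floor in *Prdm14*+/- cells 78 and 100 and in WT cell 61. Their *Prdm1* levels, 7.83, 8.08 and 8.04 in cells 78, 100 and 61, were the lowest of all cells. Other germ cell genes were detected in part. *Kit* was above the floor in cells 78 (10.49) and 61 (8.77) but not in cell 100 (deposited 3.85). *Sox2* was above it in cells 100 (7.37) and 61 (8.93) but listed at 0 in cell 78. *Prdm14* was 8.97 in cell 78 and listed at 0 in cells 100 and 61. Whether these cells are PGCs was not tested, and *Dnd1* is also given without them.

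*Dnd1* was high in all cells labelled *Prdm14* KO and spread widely in the other labels. It lies on chromosome 18 (36763671 to 36766214, GRCm38) and was read by probe set 1455367_at. Its level was 11.29, 12.22, 12.17 and 11.97 in KO cells 8, 18, 21 and 81. Among the 13 cells labelled *Prdm14*+/-, the lowest lay at the floor, the median was 11.09 and the highest 12.37. Among the 13 cells labelled WT, the lowest was 8.40, the median 11.68 and the highest 12.65. The KO values thus fell inside the range of the other labels, and 2 WT cells and 1 *Prdm14*+/- cell exceeded all of them. No KO cell was below 11.29, where 8 *Prdm14*+/- and 6 WT cells were. Only 4 KO cells stand beside 13 of either other label, and a lowest value depends on the number of cells.

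Mean *Dnd1* was 11.91 ± 0.43 in KO cells (SD, n = 4), 9.91 ± 2.37 in *Prdm14*+/- cells (SD, n = 13) and 10.92 ± 1.40 in WT cells (SD, n = 13), as labelled. The KO mean exceeded the WT mean by 0.99, less than the pooled SD of 1.27 between cells, and 3 of 4 KO cells lay above the WT median. By medians this difference was 0.39, and with arrays scaled to the same 75th percentile 0.25. It exceeded the *Prdm14*+/- mean by 2.00, again less than the pooled SD of 2.13, and by 0.98 by medians. Within run 3 the difference between KO and *Prdm14*+/- cells was 2.14 (pooled SD 1.62), and 3 of 4 KO cells were above all 6 *Prdm14*+/- cells of that run. *Prdm14*+/- minus WT was -1.01 (pooled SD 1.94), but -0.66 within run 2, -0.59 by medians, -0.55 with a floor of 8 on the log2 scale and -0.51 without cells 61, 78 and 100, so its size of at least 1 was lost in each of these. Without cells 78 and 100 the *Prdm14*+/- mean became 10.62, and the KO minus *Prdm14*+/- difference 1.29, so these 2 cells moved it by over 1.5 times. Within run 3 it was 1.39 without cell 100. No neighbouring pair in the order of labels, KO highest, *Prdm14*+/- lowest and WT between, was separated by more than its pooled SD over all cells.

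The 3 cells with *Dnd1* at the floor were all labelled *Prdm14*+/-: cell 76 with a deposited value of 5.83, and cells 78 and 100, listed at 0. They came from runs 2, 2 and 3. In cells 78 and 100 *Dppa3* and *Tfap2c* were listed at 0 as well. Other germ cell genes were detected in cell 78, with *Prdm1* at 7.83, *Prdm14* at 8.97 and *Kit* at 10.49, while *Sox2* was listed at 0. Cell 100 had *Prdm1* at 8.08, *Prdm14* at 0 and *Hoxb1*, a gene of the somatic mesoderm, at 11.46. Cell 76 was different: *Dppa3* was 9.85, *Tfap2c* 10.39 and *Prdm1* 10.11, with *Sox2* at 0. *Dppa3* and *Tfap2c* were thus at 0 in 2 of the 3 cells and detected in cell 76.

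*Lin28a* had the smallest SD of the members over the 30 cells, though not within each label, and was above the floor in 30 of 30 cells. It lies on chromosome 4 (134003330 to 134019196, GRCm38), and its brighter probe set, 1437752_at, stands for it. Only 1711 genes, 9.40% of those on the array, were above the floor in every cell. *Lin28a* was 9.32, 10.91, 10.86 and 10.89 in KO cells 8, 18, 21 and 81. In cells labelled *Prdm14*+/- its lowest level was 7.74, the median 10.95 and the highest 11.88. In cells labelled WT the lowest was 9.97, the median 11.24 and the highest 11.87. All 4 KO cells were below the median of both other labels, and 11 of 13 WT cells were above every KO cell, although the ranges overlapped.

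The mean of *Lin28a* was 10.49 ± 0.78 in KO cells (SD, n = 4), 10.73 ± 1.21 in *Prdm14*+/- cells (SD, n = 13) and 11.16 ± 0.57 in WT cells (SD, n = 13). KO lay 0.67 below WT, with a difference of -0.67 against a pooled SD of 0.62. KO minus *Prdm14*+/- was -0.24 over all cells (pooled SD 1.14) and -0.75 within run 3 (pooled SD 0.61). *Prdm14*+/- minus WT was -0.43 (pooled SD 0.94). The lowest KO cell decided much of this: without cell 8 the KO minus WT difference was -0.28 and the KO minus *Prdm14*+/- difference over all cells 0.16, a change of sign. The 2 lowest cells of all were *Prdm14*+/- cells of run 2, cell 66 at 7.74 and cell 79 at 9.17. The array of cell 66 had the lowest 75th percentile of the 30 arrays, 4.92, and that of WT cell 59, the lowest WT cell for *Lin28a*, had the next lowest, 5.01. Over the 30 cells *Lin28a* and the 75th percentile of the array correlated at r = 0.42 (Spearman rho 0.41), where *Dnd1* had r = -0.31 and *Mex3a* 0.05. That percentile is taken over all probe sets, including those at 0. For the 75th percentile of the values above 0 alone, r was -0.39 for *Lin28a*, 0.29 for *Dnd1* and -0.06 for *Mex3a*. With the share of probe sets listed at 0, *Lin28a* had r = -0.47. The part of these array measures in the levels was not tested.

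The other *Lin28a* probe set, 1421749_at, disagreed with the first. It was above the floor in 2 of 30 cells, both labelled WT, with 6.31 in cell 48 and 6.19 in cell 31, and it was listed at 0 in 14 cells. Nothing about the labels could be read from it. The paralogue *Lin28b* exceeded the floor in 3 of 30 cells, 2 of them *Prdm14*+/- and 1 WT.

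*Mex3a* was lower in cells labelled *Prdm14* KO than in either other label. It lies on chromosome 3 (88531946 to 88541394, GRCm38) and was read mainly by probe set 1455529_at. In KO cells 8 and 21 it was listed at 0, and in KO cells 18 and 81 it was 8.38 and 7.32. All 13 cells labelled *Prdm14*+/- were above the floor, with a lowest level of 6.13, a median of 9.68 and a highest of 10.70. In cells labelled WT, 11 of 13 were above the floor, cells 50 and 59 were listed at 0, the median was 9.80 and the highest 10.75. All 4 KO cells lay under the median of both other labels, but the 2 WT cells at 0 and the 3 *Prdm14*+/- cells under 8.38 kept the ranges from separating.

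**Figure D1:**
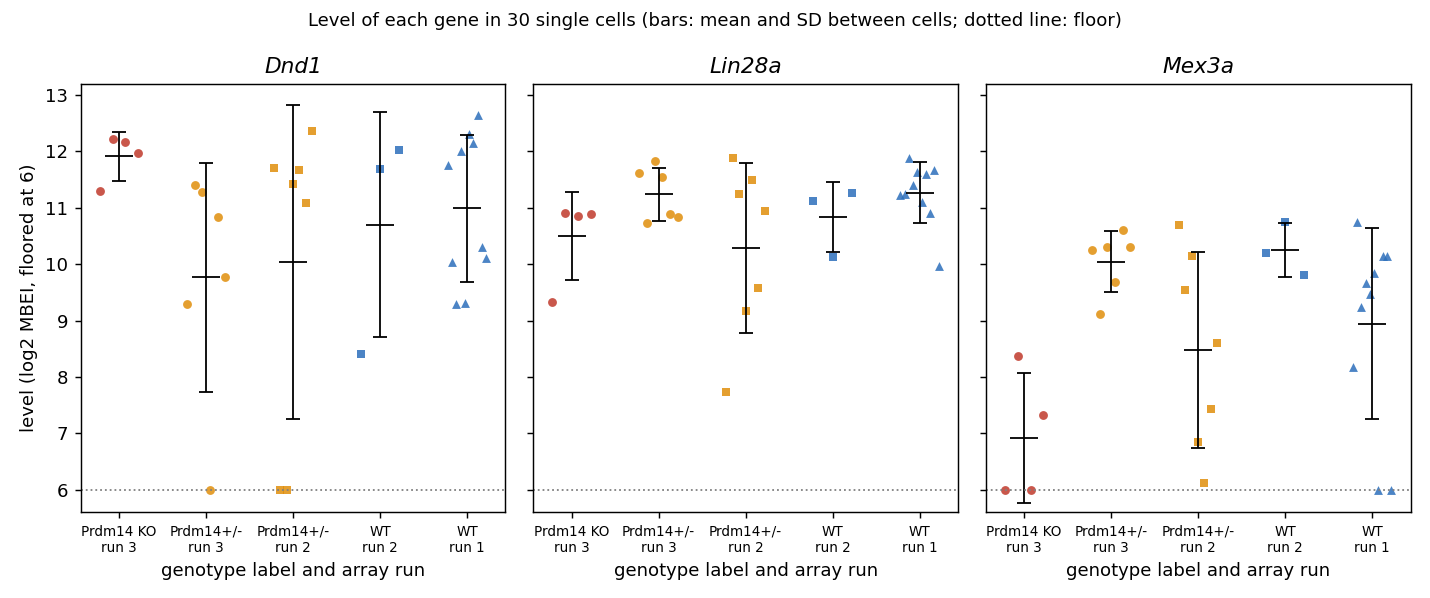
Level of *Dnd1*, *Lin28a* and *Mex3a* (y axis, log2 MBEI floored at 6, main probe set) in each cell, by genotype label and array run (x axis). Points are cells, bars the mean and SD between cells, and the dotted line is the floor. The 4 KO cells are at 11.29 or more for *Dnd1* and at 8.38 or less for *Mex3a*, and the 6 *Prdm14*+/- cells of run 3 are all at 9.12 or more for *Mex3a*.

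Mean *Mex3a* was 6.92 ± 1.15 in KO cells (SD, n = 4), 9.21 ± 1.51 in *Prdm14*+/- cells (SD, n = 13) and 9.25 ± 1.59 in WT cells (SD, n = 13). KO minus WT was -2.32 (pooled SD 1.51), and 47 of 8527 measured genes had a difference as low or lower. KO minus *Prdm14*+/- was -2.28 (pooled SD 1.45). Within run 3, where both labels were measured together, it was -3.12 (pooled SD 0.83): the 6 *Prdm14*+/- cells ranged from 9.12 to 10.61 and all 4 KO cells lay below all of them. At that distance 15 of 8527 genes were as low or lower. At the floor were 2 KO cells, both listed at 0, and no *Prdm14*+/- cell. The differences between KO and *Prdm14*+/- understate the distance only if these values at 0 are true low levels. Whether they are was not tested, so no bound is drawn. KO cells 8 and 21 were at 0 by the second probe set, described below, as well. Other cells were at 0 by 1 set only, such as *Prdm14*+/- cell 99 (10.30 and 0) and WT cell 50 (0 and 7.69). Against WT, with 2 cells at the floor on either side, no such bound holds in any case. *Prdm14*+/- minus WT was -0.04 over all cells (pooled SD 1.55).

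*Mex3a* also differed between runs within a label. Cells labelled *Prdm14*+/- averaged 10.05 ± 0.55 in run 3 (SD, n = 6) and 8.49 ± 1.74 in run 2 (SD, n = 7), a difference of 1.56 within 1 label. Cells labelled WT averaged 10.25 ± 0.48 in run 2 (SD, n = 3) and 8.94 ± 1.69 in run 1 (SD, n = 10). Within run 2, *Prdm14*+/- minus WT was -1.77 (pooled SD 1.52), and it was -0.04 over all cells. With the run as a block in the fit, KO minus WT became -4.89, a value that rests on the 3 WT cells of run 2, since run 1 held WT cells only. The second *Mex3a* probe set had a difference of 0.30 between *Prdm14*+/- cells of runs 3 and 2, and did not share the shifts that involve WT: its *Prdm14*+/- minus WT difference within run 2 was 0.56, its WT cells of run 2 lay lower than those of run 1, with a difference of -0.50 where the first set had 1.31, and its KO minus WT difference under the block was -1.25. For *Dnd1* and *Lin28a* the same fit gave KO minus WT differences of 1.48 and -1.29.

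The second *Mex3a* probe set, 1436018_at, was dimmer and placed the labels in a similar order for KO. It exceeded the floor in 1 of 4 KO cells (cell 18, at 6.72), 11 of 13 *Prdm14*+/- cells and 10 of 13 WT cells. Its mean was 6.18 ± 0.36 in KO cells (SD, n = 4), 7.83 ± 1.04 in *Prdm14*+/- cells (SD, n = 13) and 7.51 ± 1.11 in WT cells (SD, n = 13). KO minus WT was -1.33 and, within run 3, KO minus *Prdm14*+/- was -1.81. In that run 0 of 4 KO cells lay below all 6 *Prdm14*+/- cells by this set, since cell 99 was at the floor. Cell by cell, however, both *Mex3a* probe sets correlated only at r = 0.35 (Spearman rho 0.20, n = 30 cells).

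A difference of at least 1 on the log2 scale was reached by 1 of the 3 genes downwards (*Mex3a*) and by none upwards in KO minus WT, where 8.65% of 8527 measured genes were lower and 14.4% higher by that much. A gene counted as measured when it was above the floor in at least 10 of 30 cells. For KO minus *Prdm14*+/- it was reached upwards by *Dnd1* and downwards by *Mex3a* over all cells (12.5% of genes higher and 7.18% lower) and within run 3 (15.7% higher and 10.4% lower). For *Prdm14*+/- minus WT it was reached downwards by *Dnd1* alone, and not under the alternatives given above for it, where 4.75% of genes were higher and 3.93% lower. Nothing is read from these counts, since the genes were chosen with the values known. The spread of *Dnd1* over the 30 cells, an SD of 1.91, exceeded that of 94.7% of measured genes. The SD was 1.66 for *Mex3a*, above 81.5% of genes, and 0.93 for *Lin28a*, above 24.1%.

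The 3 genes did not go together from cell to cell. In 23 of 30 cells all 3 exceeded the floor, among them 2 of 4 KO, 10 of 13 *Prdm14*+/- and 11 of 13 WT cells. Of the rest, 4 cells (2 KO and 2 WT) lacked only *Mex3a* and 3 cells (all *Prdm14*+/-) lacked only *Dnd1*. No cell lacked both. Over the 30 cells the correlation of *Dnd1* and *Mex3a* was r = -0.30 (rho -0.28), that of *Dnd1* and *Lin28a* r = -0.31 (rho -0.33) and that of *Lin28a* and *Mex3a* r = 0.20 (rho 0.15). The cells share array runs and possibly embryos, so no p is given, and these are weak correlations.

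**Figure D2:**
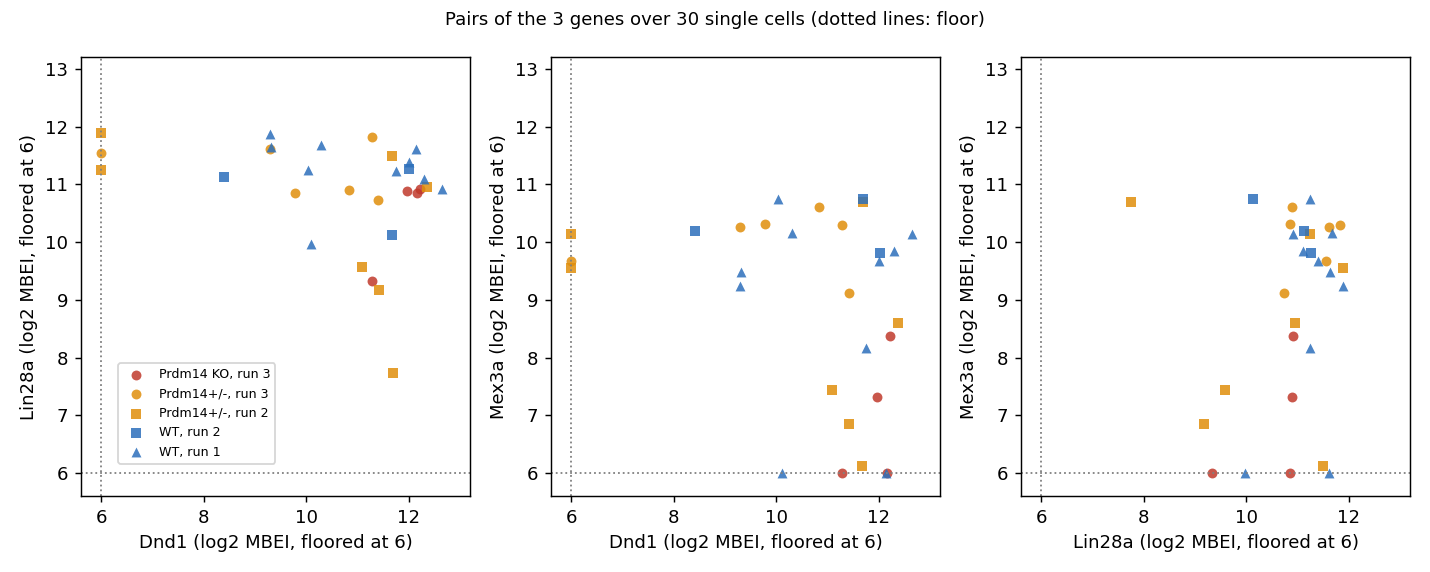
*Lin28a* against *Dnd1*, *Mex3a* against *Dnd1* and *Mex3a* against *Lin28a* (all axes log2 MBEI floored at 6), 1 point per cell, coloured by genotype label and shaped by array run. The corner where *Dnd1* and *Mex3a* are both at the floor (dotted lines) holds no cell, and the correlations are -0.31, -0.30 and 0.20.

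Within labels and runs the correlations varied. *Dnd1* and *Mex3a* correlated at r = -0.48 (rho -0.66) in run 3, at -0.32 (rho 0.04) in run 2 and at -0.07 (rho 0.09) in run 1, with 10 cells each. *Dnd1* and *Lin28a* had r = -0.38 in run 3, -0.46 in run 2 and -0.17 in run 1. For *Lin28a* and *Mex3a*, r was 0.67 (rho 0.44) in run 3, -0.06 (rho -0.20) in run 2 and 0.39 (rho 0.07) in run 1. After the mean of each label and run was taken off, the values were -0.21 for *Dnd1* and *Mex3a*, -0.37 for *Dnd1* and *Lin28a* and 0.06 for *Lin28a* and *Mex3a*. Without the 3 cells with *Dnd1* at the floor, which tie as farthest from its median, the pairs with *Dnd1* had -0.28 for *Mex3a* and -0.20 for *Lin28a*. Without the 2 cells farthest from the *Lin28a* median, *Lin28a* and *Mex3a* had 0.38.

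Germ cell genes moved with *Dnd1*. The germ cell list (*Prdm1*, *Prdm14*, *Tfap2c*, *Dppa3*, *Kit*, *Itgb3*, *Alpl*, *Ifitm3*, *Sox2*, *Pou5f1* and *Nanog*) was averaged in each cell, and that mean ranged from 11.31 to 11.71 in cells labelled *Prdm14* KO, from 7.69 to 11.54 in those labelled *Prdm14*+/- and from 8.37 to 11.10 in those labelled WT. Of its 11 genes, 8 were higher by at least 1 in KO than in WT cells (14.4% of all measured genes), with a median of 1.73 beside 0.12 over all genes. Against the *Prdm14*+/- cells of run 3 it was 7 of 11 (15.7%), with a median of 2.41 beside 0.09. The 8 include *Prdm14*, which defines the labels, and *Prdm1*, by which cells were picked. Both counts hold *Itgb3*, which was above the floor in 4 of 30 cells and did not count as measured. *Dnd1* correlated with this mean at r = 0.64 (rho 0.51, n = 30 cells), at 0.72 after the means of label and run were taken off and at 0.50 without the 3 cells at the floor, which tie as farthest from the *Dnd1* median. By run, r was 0.85 in run 3, 0.74 in run 2 and 0.34 in run 1. Among single genes of the list, *Tfap2c*, a regulator of PGC specification, had r = 0.70 with *Dnd1*, and *Ifitm3*, a membrane protein gene active in early PGCs, had 0.60. The pluripotency genes *Pou5f1* and *Nanog* had 0.29 and 0.12.

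*Lin28a* and *Mex3a* ran the other way. Their correlations with the germ cell mean were r = -0.41 (rho -0.51) and -0.42 (rho -0.36), and -0.30 and -0.17 after the means of label and run were taken off. In run 1, which held only WT cells, they were -0.15 for *Lin28a* and 0.29 for *Mex3a*. With the mean of 15 somatic mesoderm genes the correlation was -0.45 for *Dnd1*, 0.48 for *Lin28a* and 0.36 for *Mex3a*. That mean ranged from 7.57 to 8.95 in cells labelled *Prdm14* KO, from 7.37 to 10.03 in those labelled *Prdm14*+/- and from 7.82 to 9.62 in those labelled WT. Of these 15 genes, 10 were above the floor in any KO cell, 14 in any *Prdm14*+/- cell and 13 in any WT cell, counts over 4, 13 and 13 cells. In KO minus WT 1 of the 15 was higher by at least 1 (*Tbx6*, 1.44) and 5 were lower, with a median of -0.61. Over all measured genes 14.4% were higher and 8.65% lower, with a median of 0.12. Within run 3, 1 of the 15 was higher and 7 were lower, with a median of -0.99. There 15.7% of all measured genes were higher and 10.4% lower, with a median of 0.09. Of the 15 genes only 11 counted as measured. *Mixl1*, lower in both comparisons, and *Hoxb1* and *Foxf1*, lower within run 3, did not. *Tbx4*, at the floor in all cells, is part of both list medians. *Hoxb1*, *Mixl1* and *Pdgfra* were at the floor in all 4 KO cells, while *Msx1*, *Msx2*, *Cdx2*, *Evx1* and *Bmp4* were above it in all 4. Over the 30 cells the first 3 exceeded the floor in only 8, 9 and 16, and in 4, 4 and 9 of 13 WT cells. The part of cell identity in the levels of the 3 genes was not tested.

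**Figure D3:**
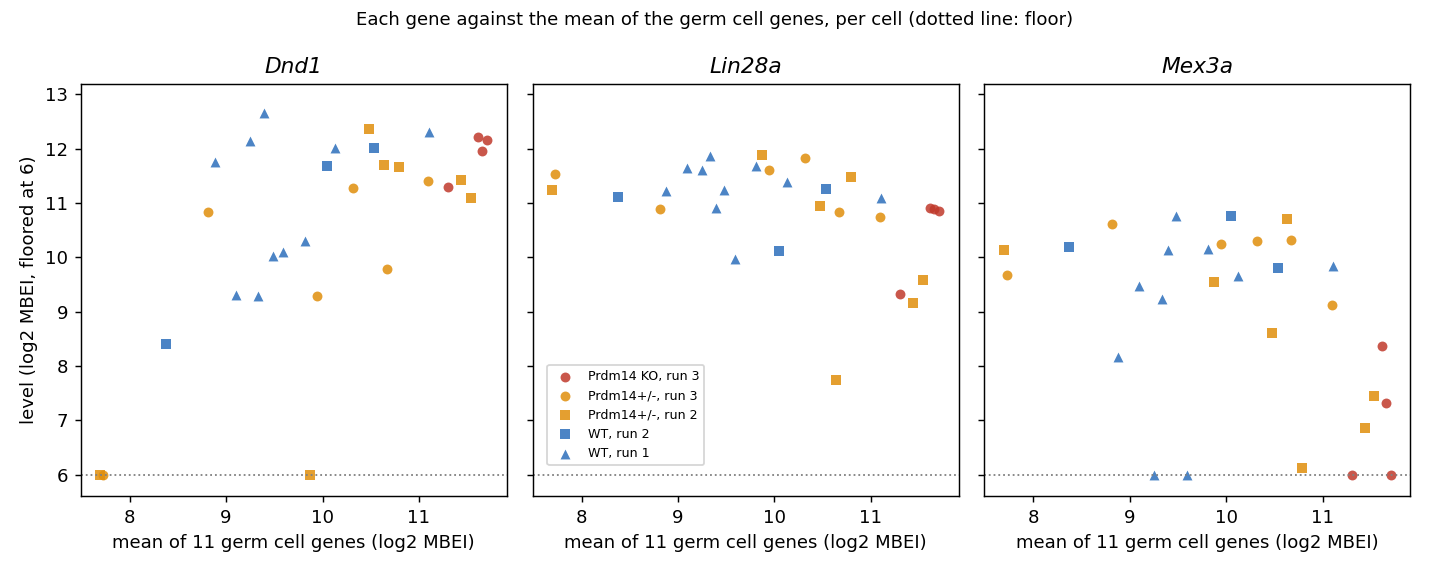
*Dnd1*, *Lin28a* and *Mex3a* (y axis, log2 MBEI floored at 6) against the mean of 11 germ cell genes in the same cell (x axis, log2 MBEI), 1 point per cell, coloured by label and shaped by run. The 4 KO cells lie at 11.31 or more on the x axis, and the 2 cells with the lowest means, 7.69 and 7.72, have *Dnd1* at the floor (r = 0.64, -0.41 and -0.42 from left to right).

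By the Spearman correlation over the 30 cells, the genes most like *Dnd1* among 8524 measured ones were *Ctc1* (rho 0.77), *Cox7a2l* (0.75), *Idh3g* (0.73), *Itm2c* (0.72) and *Trrap* (0.71), where 99% of genes were under 0.54. The probe set of *Ctc1* carries the suffix that the maker gives to sets that can match other transcripts. Those of *Fkbp1a* and *H2az1*, named next, carry it too. The genes most like *Lin28a* were *Pkia* (0.80), *Cth* (0.78), *Fkbp1a* (0.76), *H2az1* (0.76) and *Zfp959* (0.75), where 99% were under 0.57. The genes most like *Mex3a* were *Cndp2* (0.78), *Fhl1* (0.69), *1700123O20Rik* (0.67), *Atp5o* (0.66) and *Snx19* (0.62), where 99% were under 0.46. With the means of label and run taken off, *Ctc1* was at place 2 for *Dnd1* and *Zfp959* at place 3 for *Lin28a*, while *Snx19* was at place 795 for *Mex3a*.

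Relatives and partners of the 3 genes were listed by role. In the MEX3 family, *Mex3b* and *Mex3d* were lower in KO than in WT cells by differences of -1.44 and -1.51, and *Mex3c*, above the floor in 28 of 30 cells, had 0.87. *Mex3b* and *Mex3d* were above the floor in only 15 and 17 cells, and in 1 of 4 KO cells each. Within run 3 their differences between KO and *Prdm14*+/- cells were -0.53 and -0.24, so that *Mex3a* was the single member of 4 past 1 there. Of all measured genes 10.4% were lower by at least 1 in that comparison.

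Genes of let-7 maturation and function were listed next. Of 15 such genes, 12 of which counted as measured, 1 was higher by at least 1 in KO than in WT cells and 1 lower (14.4% and 8.65% of measured genes). Their median was 0.14, beside 0.12 over all measured genes. It turned to -0.44 with arrays scaled to the same 75th percentile, where all genes had -0.44, and to -0.49 with the run as a block. *Ago2*, an Argonaute protein that holds microRNAs, was the higher one with 2.04, and 1.47 within run 3. *Prkra*, a partner of Dicer, was the lower one with -1.23, but had -0.19 within run 3. *Drosha* and *Dicer1*, which cut the precursors, had 0.55 and 0.25 against WT, and *Tut4*, which adds uridines to LIN28-bound precursors, had 0.14. *Trim71*, itself a let-7 target, was above the floor in 30 of 30 cells with -0.08.

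Among 13 let-7 target genes, 12 of which counted as measured, 6 were lower by at least 1 in KO than in *Prdm14*+/- cells within run 3 and 1 was higher. Of all measured genes 10.4% were lower and 15.7% higher by that much. The list median was -0.70, beside 0.09 over all measured genes. The lower ones were *Myc* (-2.21), *Ccnd1* (-2.10), *Nras* (-1.35), *Igf2bp3* (-1.17), *Cdc25a* (-1.14) and *Hmga2* (-1.08). *Myc* was at the floor in all 4 KO cells, and above it in 4 of 6 *Prdm14*+/- cells of run 3 and 6 of 13 WT cells. The higher one was *Prdm1* (1.53), which was used to pick the cells. Against WT 3 of 13 were lower (8.65% of measured genes) and 2 higher (14.4%), *Prdm1* at 1.73 and *Mycn* at 1.09. The median was -0.38, or -0.90 with the run as a block. *Lin28a* correlated with the mean of the list at r = 0.53 (rho 0.54), and at 0.37 without the 2 cells farthest from its median. Its correlation with 11 widely expressed RNA-binding genes was larger, r = 0.71 (rho 0.65), was 0.40 without those cells, and was 0.10 in run 1.

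Partners of DND1 on its targets came next. Of 10 CCR4-NOT deadenylase genes, 2 were higher by at least 1 in KO than in WT cells (14.4% of measured genes). None was lower (8.65%). The higher ones were *Cnot6l* with 2.51 and *Cnot4* with 2.21, but 1.10 and 0.54 against *Prdm14*+/- cells within run 3. *Cnot6l* was above the floor in 8 of 30 cells and in 0 of 13 WT cells, too few to count as measured. The list had a median of 0.58, beside 0.12 over all measured genes. With arrays scaled to the same 75th percentile it was -0.11, where that of all genes was -0.44, and with the run as a block it was -0.03. Within run 3 the median was 0.14. *Pum2*, an mRNA repressor that works with NANOS proteins, had -0.53 against WT and -1.07 within run 3, and *Nanos1* was at the floor in all cells. *Nanos3* was not matched to a symbol and is not analysed here. Of 11 later germ cell RNA-binding genes, 3 were higher by at least 1 in KO than in WT cells (14.4% of measured genes). They were *Elavl2* (1.96), *Ddx4* (1.82, but -0.30 within run 3) and *Tdrd9* (1.20). The list median was 0.26, beside 0.12 over all measured genes. Only 3 of the 11 genes counted as measured, and *Tdrd9*, above the floor in 3 of 30 cells, did not. Of the 11 widely expressed RNA-binding genes, 0 passed a difference of 1 in either direction in KO minus WT or within run 3. Of all measured genes, 14.4% were higher and 8.65% lower in KO minus WT, and 15.7% and 10.4% within run 3.

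**Figure D4:**
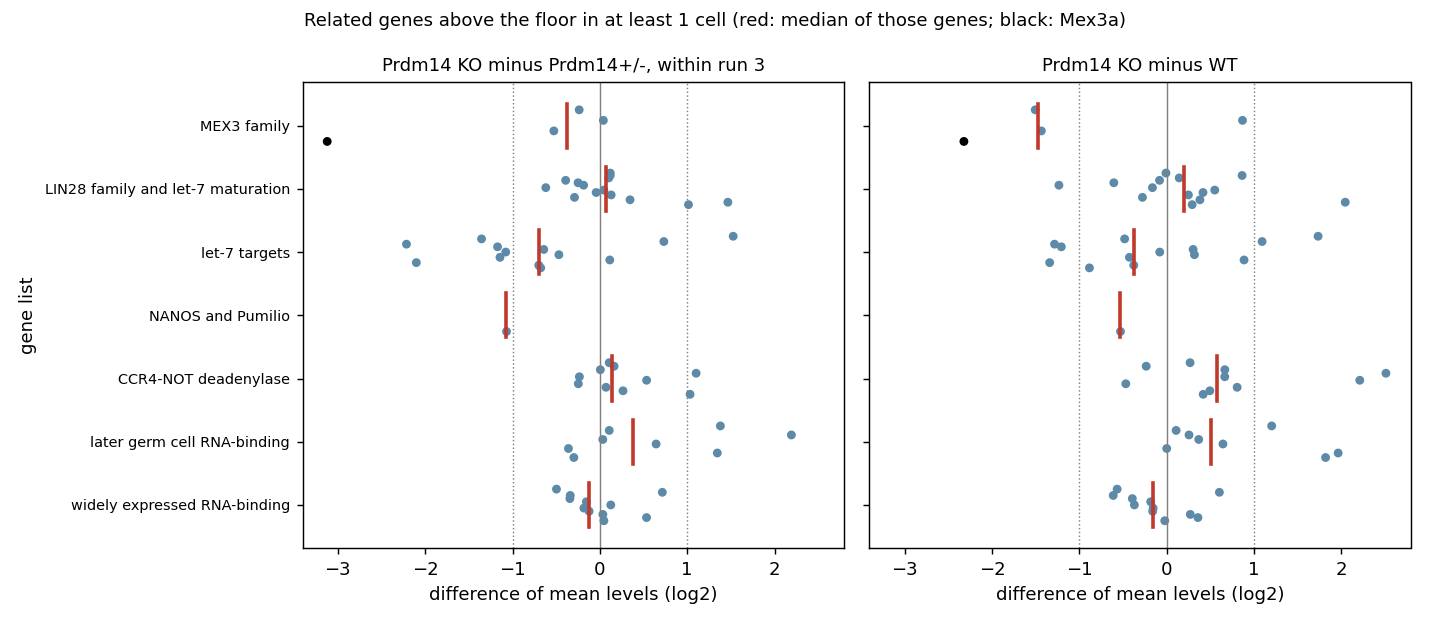
Difference of mean levels (x axis, log2 scale) between cells labelled *Prdm14* KO and *Prdm14*+/- within run 3 (left) and between KO and WT (right) for each related gene above the floor in at least 1 cell, by list (y axis). Red lines are medians of the plotted genes, dotted lines mark differences of 1, and the black point is *Mex3a*, at -3.12 and -2.32.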

How the data were processed

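Gene expression was analysed from the deposited table of 30 Affymetrix mouse arrays, 1 per single PGC. With dChip 1.3 and its perfect-match minus mismatch model, the authors obtained MBEI on the log2 scale, and the deposited log2 values were used unchanged. Whether arrays were scaled, and how values at 0 arose, is not stated in these sources. Probe sets were named through the platform table (34958 with 1 symbol, 932 with several, 9211 not listed there), and a gene was read from its probe set with the highest overall mean. Values were floored at 6 (64 MBEI), and label means were compared as differences, with a least-squares fit that blocks on the array run, or differences within runs, as alternatives. No 2 arrays held identical values. No test was run, since the labels name no embryo. The number of arrays limits the precision.

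The members and lists were chosen with earlier results of these data known. Named genes were the members, the list genes and the 5 genes most like each member by Spearman rho. Of 144 list genes, 13 were not matched to a symbol and are not analysed here. The calculation of differences was tested on simulated data. Alternatives were floors of 16 and 256 MBEI, 3 scalings, the mean over probe sets, medians, and leaving out cells. Scripts ran under Python 3.11.15 with pandas 2.3.3, NumPy 2.4.6 and, for figures, matplotlib 3.10.9.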

Additional observations from a re-analysis of the deposited data

Results flagged for a closer look

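*Lin28a* in KO cell 8 stood apart from the other cells labelled *Prdm14* KO, at 9.32 where the next lowest was 10.86. The gap was 0.966 of the range of the 4 cells. *Lin28a* in WT cell 59 stood apart from the 10 WT cells of run 1, at 9.97 where the next lowest was 10.91, a gap of 0.497 of their range. The array of cell 59 had a 75th percentile of 5.01, and that of cell 8 had 7.08. Of 12 groups examined 2 were marked in this way, and chance marks about 1 in 20.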

How the results depend on the processing

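Over 9 differences of the 3 genes and 120 alternative values, 113 moved by less than the SD between cells, 7 by more, and none of the differences of at least 1 changed sign. With the array run as a block, KO minus WT became -4.89 for *Mex3a* and -1.29 for *Lin28a*, and *Prdm14*+/- minus WT became -1.77 for *Mex3a*, as within run 2 (-1.77). Without a floor, an alternative chosen after seeing the data, *Mex3a* had -4.40 for KO minus WT and -5.28 for KO minus *Prdm14*+/-. Scaling to the same 75th percentile moved the median of all measured genes in KO minus WT to -0.44, against 0.12 before, and gave -1.40 for *Lin28a*. It also moved the correlation of *Dnd1* and *Lin28a* to 0.13 and that of *Dnd1* and *Mex3a* to -0.0042, so neither negative correlation held under every scaling. *Prdm14*+/- minus WT of *Mex3a*, near 0, became 0.27 with a floor of 16 MBEI, 0.88 without a floor and 0.14 over both probe sets. In these cases the cause was not tested.

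Leaving out each KO cell in turn gave KO minus WT of 0.88 to 1.20 for *Dnd1*, -0.81 to -0.28 for *Lin28a* and -2.81 to -2.01 for *Mex3a*, and KO minus *Prdm14*+/- of 1.90 to 2.21, -0.37 to 0.16 and -2.77 to -1.97. Leaving out the 3 cells with *Dppa3* and *Tfap2c* at the floor, or the 3 with *Dnd1* at the floor, was also chosen after seeing the data. For 21 list medians and 126 alternative values, 12 moved by more than the SD between cells and 20 changed sign. No paired analysis was possible because replicate numbers here only name cells, and the labels tie no cell to a cell of another genotype.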
